A study of Mus musculus with 6 samples.

Results

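Macrophages release growth factors that act on neighbouring stromal, vascular and tumour cells, and 10 such genes were followed here in macrophages exposed to osteosarcoma vesicles. The list holds Igf1, the platelet-derived growth factor genes Pdgfa and Pdgfb, the vascular endothelial growth factor genes Vegfb and Vegfc, the epidermal growth factor family gene Hbegf, the transforming growth factor-β type genes Tgfb1, Gdf15 and Inhba, and the progranulin gene Grn. Members were the rows with these 10 symbols. Tgfb1 was not analysed here, which left 9 members with values among 26835 genes.

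The cells were macrophages grown from the bone marrow of wild-type BALB/C mice aged 5 to 8 weeks, and their RNA was sequenced. All cultures had been grown for 6 days in 10% serum with M-CSF at 25 ng/ml, a growth factor that drives marrow precursors into macrophages. The treated cultures then received extracellular vesicles (10 µg) of the mouse osteosarcoma line K7M2 for 24 h, and the controls PBS, phosphate-buffered saline. Each group held 3 libraries from independent experiments, numbered 1 to 3. No group analysed here received vesicles from a non-tumour cell, so an effect particular to tumour vesicles cannot be told apart from an effect of vesicles in general.

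Most of these proteins are secreted ligands of receptor kinases. Insulin-like growth factor 1, the platelet-derived and vascular endothelial growth factors and heparin-binding EGF bind receptor tyrosine kinases that promote growth, migration or survival. Activin A, a dimer of the Inhba product, and growth differentiation factor 15 belong to the TGF-β superfamily, in which activins and TGF-β signal through serine/threonine kinase receptors and Smad proteins. Progranulin is both a secreted growth factor and a lysosomal protein that macrophages make in quantity.

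Values are FPKM, reads scaled to transcript length and library total. The spacing of low values gave implied totals of 21334283 to 25689776 reads per library, so that precision differed little between libraries. Over all 13009 genes tested, 2395 rose and 4631 fell with vesicles by limma at a Benjamini-Hochberg adjusted p under 0.05, and the median change was -0.12 on the log2(FPKM + 1) scale. Scaling by median of ratios shifted that median to -0.0024 and gave 3445 higher and 3376 lower, so changes below are read against this shift. All 9 macrophage markers were present, and their summed level was 4240 to 5126 FPKM with PBS and 12740 to 14200 FPKM with vesicles. Most of that sum was Lyz2, and the markers did not move as one: Adgre1 went from 140 to 194 FPKM up to 1617 to 1965 FPKM, Cd68 from 370 to 436 FPKM down to 195 to 216 FPKM, and Mertk stayed between 5.63 and 7.39 FPKM. The 4 lymphocyte, 5 dendritic, 5 endothelial and 2 mast cell markers with values were under 1 FPKM in every library. Of 9 neutrophil markers 5 were too, and the sum of all 9 was 5.62 to 7.90 FPKM with PBS and 54.7 to 69.4 FPKM with vesicles, with Ly6g at 0 in all libraries but PBS replicate 1. S100a8 and Mmp8 made up most of the difference. Camp was higher with vesicles too, at 0.24, 0.309 and 0.0514 FPKM against 2.14, 3.27 and 1.26 FPKM. S100a9 was at 1.06, 1.29 and 0 FPKM against 0.171, 0.124 and 1.25 FPKM. Ngp, Retnlg and Ltf overlapped between the groups as well. The 6 platelet markers summed to 30.4 to 36.8 and 128 to 157 FPKM, nearly all of it Pf4, and the 6 monocyte markers to 4.10 to 7.94 and 2.17 to 6.69 FPKM. The part of such cells in the results was not tested.

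Of the 9 members with values, 5 fell, 1 rose, 2 were tested and not called, and Gdf15 lay below the filter of at least 1 FPKM in at least 3 libraries. The members that fell were Igf1, Pdgfa, Pdgfb, Vegfb and Hbegf, and the one that rose was Vegfc. Among all genes tested, 35.6% were called lower, 18.4% higher and 54.0% either way. The same 6 members had groups that did not overlap, 5 lower and 1 higher, where 42.0% of all genes were lower without overlap and 21.8% higher. Some of these members entered the test through 1 group only, so their count is no support for a change of the list. Vegfc reached 1 FPKM in 0 PBS and 3 vesicle libraries, Pdgfa in 3 PBS and 1 vesicle library, and Hbegf in 3 PBS and 2 vesicle libraries. With a filter on the mean over all 6 libraries, which Vegfc also passed only through its vesicle libraries, 34.5% of all genes were lower and 18.3% higher, and the calls of the 6 were as before. With no filter, which does not select on either group, each of the 6 kept its call, and 20.8% of all genes were lower and 9.31% higher. In bulk RNA, fewer cells of a type and less RNA per cell cannot be told apart.

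**Figure D1:**
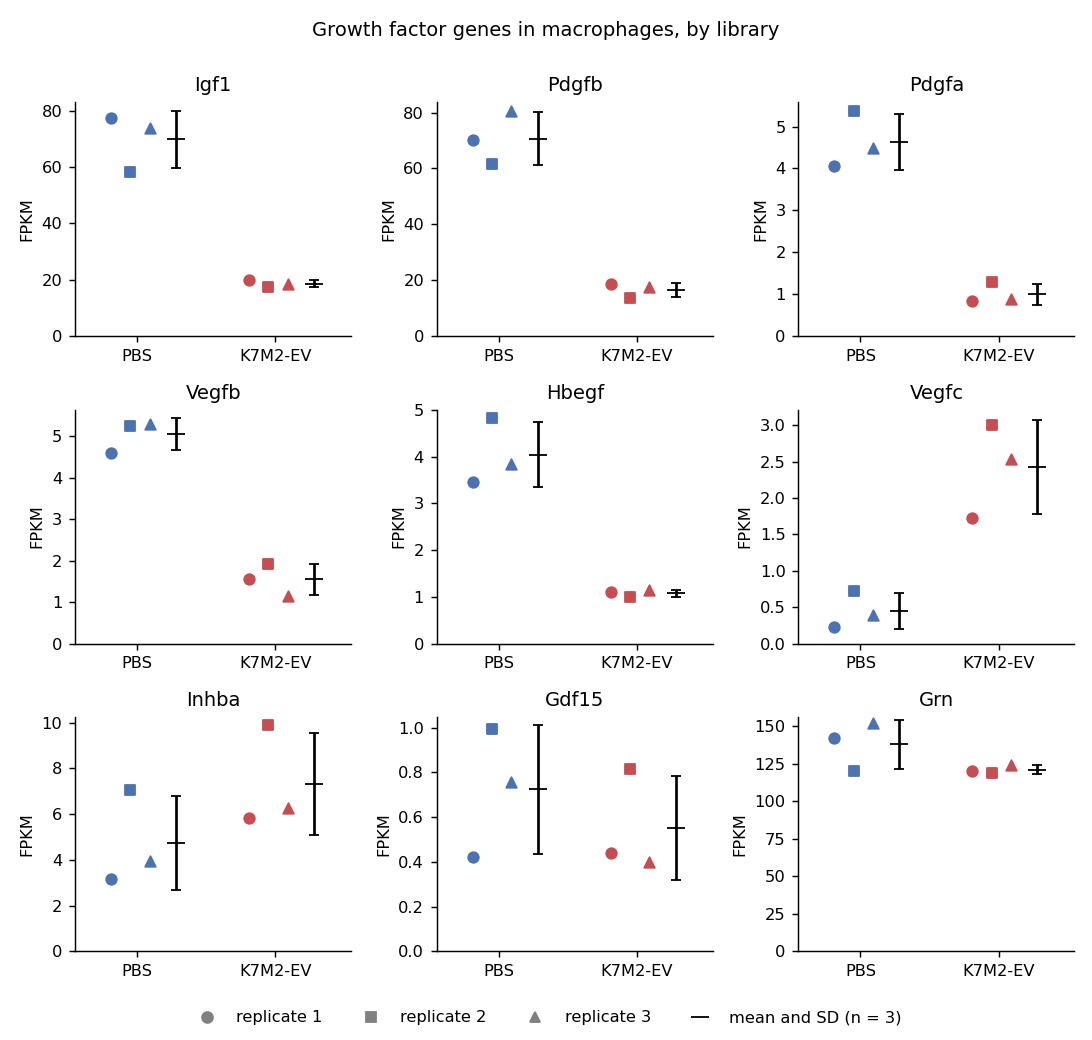
FPKM (vertical axis, from 0) of each of the 9 growth factor genes in the 3 PBS and 3 K7M2-EV libraries; marker shapes give the replicate number, and the bar to the right of each group is the mean with its SD. The groups are separated for Igf1, Pdgfb, Pdgfa, Vegfb, Hbegf and Vegfc and overlap for Inhba, Gdf15 and Grn.

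The upstream sequences of Vegfb, Vegfc and Inhba are shown because Vegfb and Vegfc, of 1 family, moved in opposite directions, and Inhba had a higher mean with vesicles as Vegfc did. Each run is the 250 bases before a transcription start in RefSeq's annotation of GRCm38.p6, 5′ to 3′ on the gene's own strand. RefSeq windows were found for 7 members, and only windows clear of annotated exons were considered, which left 4 members. The window of Gdf15, at 56.4% G and C and with no match to the motifs below, is not printed. Capitals mark matches, on either strand, to the GC box GGGCGG, the TATA box TATAAA, AP-1 TGANTCA or the cyclic AMP response element TGACGTCA.
Vegfb (chr19:6987652-6987901, minus strand): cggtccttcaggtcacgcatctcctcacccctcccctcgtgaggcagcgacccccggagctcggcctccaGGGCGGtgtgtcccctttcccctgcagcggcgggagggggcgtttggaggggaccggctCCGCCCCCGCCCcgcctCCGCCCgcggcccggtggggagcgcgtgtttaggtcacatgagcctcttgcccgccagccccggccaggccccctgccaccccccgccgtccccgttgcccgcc
Vegfc (chr8:54077282-54077531, plus strand): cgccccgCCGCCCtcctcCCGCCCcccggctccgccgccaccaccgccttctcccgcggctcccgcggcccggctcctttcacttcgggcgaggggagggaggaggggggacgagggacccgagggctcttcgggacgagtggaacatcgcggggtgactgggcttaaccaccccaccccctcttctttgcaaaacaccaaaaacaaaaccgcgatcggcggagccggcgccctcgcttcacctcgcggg
Inhba (chr13:16011601-16011850, plus strand): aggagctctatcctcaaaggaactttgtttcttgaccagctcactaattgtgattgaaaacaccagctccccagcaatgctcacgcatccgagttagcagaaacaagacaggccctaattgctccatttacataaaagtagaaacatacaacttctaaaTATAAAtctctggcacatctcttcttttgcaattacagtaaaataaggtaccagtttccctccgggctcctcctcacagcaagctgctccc
The Vegfb and Vegfc windows were rich in G and C, at 76.4% and 71.6%, and held 4 and 2 GC boxes, a motif in 32.7% of all 32851 windows of this length. The Inhba window was 43.2% G and C and held 1 TATA box, found in 12.4% of windows. AP-1 (6.75% of windows) and the cyclic AMP response element (1.55%) had no match in the 3 windows. Base composition was alike in the Vegfb and Vegfc windows and differed between those of Vegfc and Inhba. The change of Inhba was not called, and any part of these sequences in the changes was not tested.

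Igf1 encodes insulin-like growth factor 1, a survival and growth ligand that macrophages supply to surrounding tissue. It lies on chromosome 10 of GRCm38 at 87858265 to 87937042 on the plus strand. Its level was 77.3, 58.3 and 74.0 FPKM in the 3 PBS libraries and 19.8, 17.3 and 18.4 FPKM in the vesicle libraries. All PBS values were at least 58.3 FPKM and all vesicle values at most 19.8 FPKM, so the groups did not overlap, as in 63.8% of all genes tested in either direction. The mean fell 3.78-fold, from 69.9 ± 10.2 to 18.5 ± 1.21 FPKM (SD, n = 3 per group), a log2 change of -1.85 with a standard error of 0.116 (limma adjusted p = 4.32e-05). About 3809 to 18823 reads stood behind each of these values, so counting error was at most 1.62%.

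Pdgfb encodes the B chain of platelet-derived growth factor, a mitogen for pericytes and fibroblasts, and maps to chromosome 15 at 79995874 to 80014977 on the minus strand. Its FPKM values were 70.1, 61.4 and 80.5 with PBS and 18.4, 13.5 and 17.6 with vesicles. The 2 groups were far apart, and replicate 2 was the lowest library in each. The mean fell 4.28-fold, from 70.7 ± 9.55 to 16.5 ± 2.64 FPKM (log2 change -2.04, standard error 0.143, limma adjusted p = 6.81e-05). This was the largest fall among the members tested on the log2(FPKM + 1) scale, and 167 of the 13009 genes fell by more.

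Pdgfa encodes the A chain, the partner of the B chain in heterodimers and a ligand of the α receptor, and lies on chromosome 5 at 138976014 to 138997370. Its level was about an order of magnitude below that of Pdgfb in each library, at 4.05, 5.36 and 4.48 FPKM in controls against 0.827, 1.29 and 0.883 FPKM after vesicles. Every vesicle value was below every PBS value. The mean fell 4.63-fold, from 4.63 ± 0.667 to 0.999 ± 0.251 FPKM (log2 change -1.49, standard error 0.123, limma adjusted p = 0.000136). With voom on approximate reads, which adds less to low values, the log2 change was -2.23. The ratio of Pdgfb to Pdgfa FPKM was 17.3, 11.5 and 18.0 with PBS and 22.3, 10.5 and 19.9 with vesicles. These ranges overlap, and a difference between the falls of the chains was not tested. The noncoding gene 6330403L08Rik, whose exons overlap those of Pdgfa on the opposite strand, was at 1.56 ± 0.0898 and 0.966 ± 0.0806 FPKM. No source used here gives the strand setting, so its reads cannot be told apart from those of Pdgfa where the exons overlap.

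Vegfb and Vegfc, relatives within the vascular endothelial growth factor family, moved in opposite directions. Vegfb, a ligand of the receptor Flt1, lies on chromosome 19 at 6982473 to 6987651 and was at 4.60, 5.24 and 5.29 FPKM without vesicles and 1.56, 1.93 and 1.16 FPKM with them. No vesicle library reached a PBS library. The mean fell 3.26-fold, from 5.05 ± 0.386 to 1.55 ± 0.384 FPKM (log2 change -1.26, standard error 0.121, limma adjusted p = 0.000261).

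Vegfc, a ligand of the receptor Flt4 that drives growth of lymphatic vessels, lies on chromosome 8 at 54077606 to 54187096. It was at 0.234, 0.725 and 0.388 FPKM in the PBS libraries and 1.73, 3.01 and 2.54 FPKM in the vesicle libraries. The lowest vesicle library was above the highest PBS library, and replicate 2 was the highest in both groups. The mean rose 5.40-fold, from 0.449 ± 0.251 to 2.42 ± 0.647 FPKM (log2 change 1.24, standard error 0.180, limma adjusted p = 0.00156). On approximate reads the log2 change was 2.52, since adding 1 FPKM compresses values as low as these. About 12.6 to 37.9 reads stood behind the PBS values and 102 to 163 behind the vesicle values, with counting errors of up to 28.1% and 9.91%.

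The ratio of Vegfb to Vegfc FPKM was 19.6, 7.24 and 13.7 in the PBS libraries and 0.904, 0.641 and 0.455 in the vesicle libraries. Vegfb was thus well above Vegfc in every PBS library. With vesicles Vegfc was the higher of the pair, but in replicate 1 the gap of 1.56 to 1.73 FPKM was within the counting errors of 12.9% and 9.91%, and the ranges of the 2 genes overlapped.

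Hbegf encodes heparin-binding EGF-like growth factor, made as a membrane precursor and shed by proteases to activate the EGF receptor. It was at 3.47, 4.82 and 3.84 FPKM in controls against 1.10, 0.988 and 1.14 FPKM after vesicles. The 3 vesicle values lay close together and below all PBS values. Its mean fell 3.76-fold, from 4.04 ± 0.698 to 1.08 ± 0.0784 FPKM (log2 change -1.27, standard error 0.107, limma adjusted p = 0.000149).

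Inhba encodes the activin βA chain, whose dimer is activin A, and lies on chromosome 13 at 16011851 to 16031621. Its level was 3.16, 7.05 and 3.95 FPKM without vesicles and 5.84, 9.88 and 6.27 FPKM with them. The groups overlapped, because PBS replicate 2 was above vesicle replicates 1 and 3. The means were 4.72 ± 2.05 and 7.33 ± 2.22 FPKM (log2 change 0.57, 95% interval -0.12 to 1.25), and the difference was not called (limma adjusted p = 0.137). Within each replicate number the vesicle library was higher, by factors of 1.85, 1.40 and 1.59. With the replicate number as a block, the same change of 0.57 had a standard error of 0.073 and was called (limma adjusted p = 0.00322), where 19.2% of all genes were higher and 36.8% lower. It was also called without PBS replicate 2, at a log2 change of 0.84 (adjusted p = 0.0247).

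Gdf15 encodes growth differentiation factor 15, a stress-induced cytokine, and lies on chromosome 8 at 70629393 to 70632456. It was at 0.420, 0.994 and 0.759 FPKM in the PBS libraries and 0.440, 0.817 and 0.398 FPKM in the vesicle libraries, below 1 FPKM in every library. The groups overlapped throughout. In the fit with no filter its log2 change was -0.15, with a 95% interval of -0.55 to 0.25 (limma adjusted p = 0.549). Between 17.1 and 39.3 reads stood behind each value, a counting error of 16.0% to 24.2%, so a small difference was not detectable at this depth.

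Grn, the progranulin gene on chromosome 11 at 102430315 to 102437048, was the most abundant member in both groups. Its level was 142, 120 and 152 FPKM in controls against 120, 119 and 124 FPKM after vesicles. PBS replicate 2 lay within the vesicle range. The means were 137.8 ± 16.3 and 120.9 ± 2.86 FPKM (log2 change -0.18, 95% interval -0.40 to 0.04, limma adjusted p = 0.149), so a fall by more than 0.40 lay outside the interval. Without PBS replicate 2 the change was -0.28 and was called (adjusted p = 0.0137), beside a median of -0.10 over all genes in that setting. It was also called, at -0.26, without both libraries of replicate 2 (adjusted p = 0.0331). Median-of-ratios scaling brought it to -0.03.

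**Figure D2:**
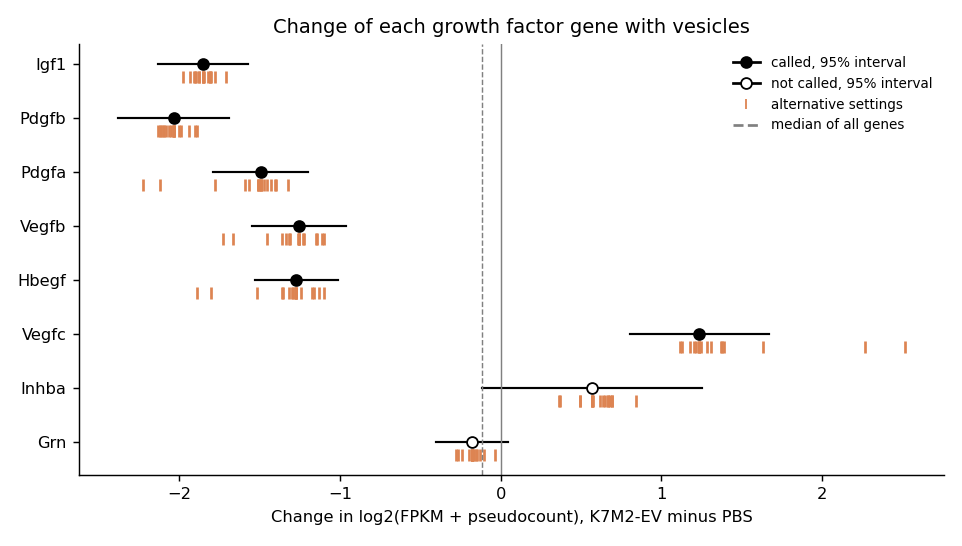
Change in log2(FPKM + pseudocount) with K7M2 vesicles for the 8 tested growth factor genes; circles and lines are the estimate and its 95% interval with a pseudocount of 1, orange ticks are the same change under each alternative setting, and the dashed line is the median of all genes, -0.12. Igf1, Pdgfb, Pdgfa, Vegfb and Hbegf lie below 0 and Vegfc above it in every setting, while the intervals of Inhba and Grn include 0.

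The order of the members by level also differed between the groups. With PBS, Grn led at 137.8 FPKM, Pdgfb and Igf1 followed at 70.7 and 69.9 FPKM without being separable, and Vegfb, Inhba, Pdgfa and Hbegf shared a range of 3.16 to 7.05 FPKM in which neighbours overlapped. Gdf15 and Vegfc were last and overlapped each other. With vesicles, Grn still led at 120.9 FPKM, and Igf1 and Pdgfb again overlapped at 18.5 and 16.5 FPKM. Inhba came next at 7.33 FPKM and did not overlap Pdgfb above it or Vegfc below it. Vegfc at 2.42 and Vegfb at 1.55 FPKM overlapped, as did Hbegf and Pdgfa at 1.08 and 0.999 FPKM, and Gdf15 was last.

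Replicate 2 was the highest library of its group, with both PBS and vesicles, for 4 members, namely Pdgfa, Vegfc, Gdf15 and Inhba. The summed level of 14 markers of mesenchymal, osteoblast and osteosarcoma cells was also highest there. It was 142, 343 and 156 FPKM without vesicles and 289, 672 and 279 FPKM with them. None of the 14 was at 0 in every library, and 5 were under 1 FPKM in every library, Sp7, Alpl, Bglap, Lum and Thy1. Col1a1 was the largest part of the sum, at 65.4, 154.7 and 74.3 FPKM against 131.4, 354.4 and 128.1 FPKM. Lox rose without overlap, from 15.8, 45.7 and 18.7 FPKM to 75.05, 92.7 and 70.8 FPKM. Runx2 went the other way, from 1.45, 1.75 and 1.32 FPKM to 0.591, 0.923 and 0.648 FPKM. The sum thus does not stand for all its markers. The part of these cells in the levels of the 4 members was not tested. Without both libraries of replicate 2, the log2 changes were 1.25 for Vegfc, -1.50 for Pdgfa and 0.64 for Inhba, each called (limma adjusted p = 0.00346, 0.000353 and 0.00854). Over all 13009 genes that fit called 2365 higher and 4195 lower. The marker sum was also higher with vesicles in the remaining libraries, so that fit does not remove its difference between the groups. Igf1, Pdgfb and Grn had the reverse order, with replicate 2 the lowest of both groups.

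**Figure D3:**
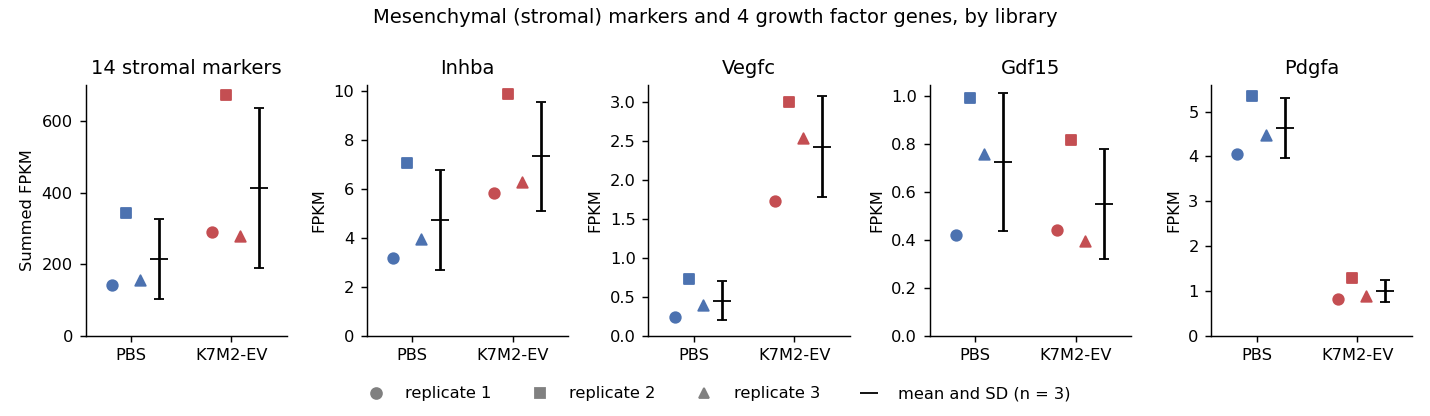
Summed FPKM of 14 mesenchymal (stromal) markers and FPKM of Inhba, Vegfc, Gdf15 and Pdgfa (vertical axes, from 0) in each PBS and K7M2-EV library, with mean and SD. Replicate 2, the square, is the highest of its group in all 5 panels, and the marker sum reaches 343 FPKM in the PBS libraries and 672 FPKM in the vesicle libraries.

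Other ligands of the same families were mostly low. Of 23 with values only 3 passed the filter, and 1 of these fell. The share called was 33.3%, against 54.0% of all genes, but over only 3 genes. Gdf3, a TGF-β superfamily ligand, was at 7.24, 3.36 and 7.09 FPKM in controls against 1.42, 0.972 and 1.32 FPKM after vesicles (log2 change -1.57, limma adjusted p = 0.00242). Vegfa, the principal angiogenic member of its family, had means of 1.59 ± 0.444 and 1.52 ± 0.624 FPKM, a difference not called (log2 change -0.05, 95% interval -0.54 to 0.43, adjusted p = 0.838). After median-of-ratios scaling its change was 0.03. The means of Tgfb3, a gene picked out with its values known, were 6.77 ± 2.32 and 3.26 ± 1.72 FPKM, and it missed the threshold (log2 change -0.89, adjusted p = 0.0525). It was called with the replicate block (adjusted p = 0.00185) and without PBS replicate 1 (0.0449) or K7M2-EV replicate 2 (0.00982). Leaving out both libraries of replicate 2 gave a call as well (adjusted p = 0.0042). Replicate 2 was its highest library in each group, at 9.30 and 5.25 FPKM.

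Among 17 receptors of the members tested, 8 fell, 2 rose and 7 were not called (median log2 change -0.23, against -0.12 for all genes). Of these receptors 58.8% were called, close to the 54.0% of all genes. Tgfbr1, the type I TGF-β receptor, was at 34.8, 25.8 and 33.8 FPKM without vesicles and 10.3, 9.23 and 9.64 FPKM with them (log2 change -1.59, limma adjusted p = 8.76e-05). Its type II partner Tgfbr2 fell by 0.58 on the log2 scale, from 30.8 ± 1.54 to 20.3 ± 0.902 FPKM. Acvr1b, a type I receptor of activins, instead rose from 10.5 ± 0.203 to 18.5 ± 0.747 FPKM (log2 change 0.76).

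The semaphorin and VEGF co-receptors Nrp1 and Nrp2 split as well. Nrp1 was at 32.5, 30.4 and 31.9 FPKM in the PBS libraries and 10.4, 10.8 and 11.9 FPKM in the vesicle libraries (log2 change -1.44, limma adjusted p = 1.18e-05). Nrp2, which binds VEGF-C, went from 43.1 ± 0.415 to 55.9 ± 2.87 FPKM (log2 change 0.37, adjusted p = 0.00187). Sort1, the sortilin gene whose product takes up progranulin, fell from 13.7 ± 1.63 to 6.89 ± 0.535 FPKM (log2 change -0.89). Igf1r, the receptor of insulin-like growth factor 1, fell from 4.39 ± 0.836 to 2.41 ± 0.606 FPKM (log2 change -0.66, adjusted p = 0.013), but was not called once replicate 1 or 3 was dropped from both groups (adjusted p = 0.0806 and 0.0662). Egfr, the receptor of heparin-binding EGF, had means of 1.12 ± 0.585 and 1.88 ± 0.697 FPKM, a difference not called (log2 change 0.45, adjusted p = 0.158). It was called with the replicate block, by quantile normalization, and without replicate 2 of PBS or of both groups (adjusted p = 0.00457, 0.0485, 0.0401 and 0.0166). Like Inhba it was highest in replicate 2 of each group, at 1.79 and 2.67 FPKM.

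Among binding proteins and factors of latency, processing and shedding, 4 rose, 6 fell and 10 were not called of 20 tested (median log2 change -0.19). The share called, 50.0%, was close to the 54.0% of all genes. Bmp1, a protease of procollagen and latent TGF-β complexes, rose from 1.66 ± 0.951 to 7.23 ± 0.744 FPKM (log2 change 1.68). Rhbdf2, whose product iRhom2 carries the sheddase ADAM17 to the surface of myeloid cells, rose from 6.71 ± 0.291 to 15.8 ± 1.25 FPKM (log2 change 1.12). Adam17 itself, a sheddase of HB-EGF, rose by 0.42 on the log2 scale, and dropping replicate 1 from both groups ended that call (limma adjusted p = 0.051). Adam9, another membrane protease, rose by 0.28, a call that ended in 4 of the 6 fits lacking 1 library, namely replicates 1 and 2 of PBS and 1 and 3 of K7M2-EV (log2 changes of 0.22 to 0.28). The Adam9 call also ended with replicate 1 or 2 dropped from both groups (limma adjusted p = 0.126 and 0.0596).

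Cd9, a tetraspanin that associates with the HB-EGF precursor, had the largest fall of this list, from 186, 175 and 192 FPKM with PBS to 37.7, 42.4 and 44.4 FPKM with vesicles (log2 change -2.13, limma adjusted p = 6.19e-06). Igfbp4, which binds insulin-like growth factors, fell from 22.6 ± 2.04 to 7.69 ± 2.22 FPKM (log2 change -1.47). Itgav, the integrin αV gene, and Ltbp3, a latent TGF-β binding protein gene, fell by 0.92 and 0.59. Nrros, a carrier of latent TGF-β in macrophages that was picked out with its values known, had PBS levels of 20.4, 18.5 and 19.7 FPKM against 12.3, 11.7 and 2.97 FPKM. Vesicle replicate 3 stood far below the other two, and the change of -1.23 was not called (limma adjusted p = 0.0595). It was called without any 1 vesicle library, at -0.66 without replicate 3 (adjusted p = 0.00122), and with the replicate block (0.0479). With the replicate block 9 genes of this list were lower in place of 6, and 7 higher in place of 4, with Igfbp7, Fstl1 and Ltbp2 added (adjusted p = 0.00121, 0.00595 and 0.0144), 3 genes that were likewise picked out afterwards and that were all highest in replicate 2 of each group.

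**Figure D4:**
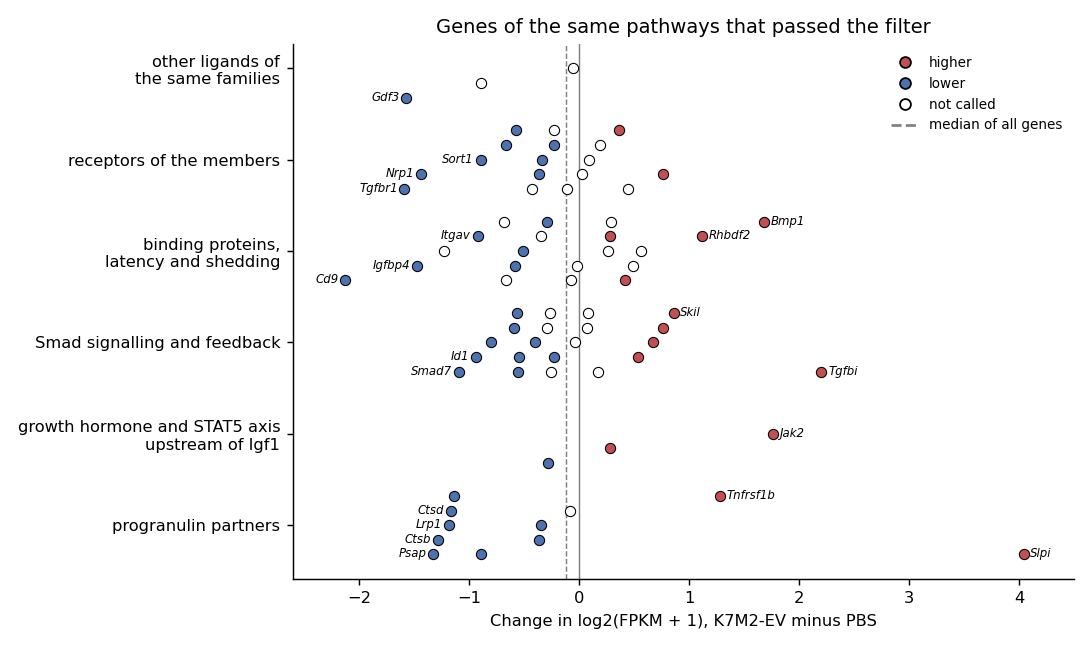
Change in log2(FPKM + 1) with K7M2 vesicles of genes in the same pathways as the growth factors, 1 point per gene that passed the filter, coloured by call; vertical offsets only separate points, and Sort1 stands in 2 rows. Cd9, Tgfbr1, Gdf3, Igfbp4 and Nrp1 lie at the low end, and Slpi and Tgfbi at the high end, with changes of 4.04 and 2.20.

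Smad signalling and feedback genes gave 5 higher, 9 lower and 7 not called of 21 tested (median log2 change -0.25, against -0.12 for all genes). The share called was 66.7%, against 54.0% of all genes. Smad7, the inhibitory Smad that is itself a TGF-β target, was at 3.90, 4.44 and 3.92 FPKM in controls against 1.38, 1.57 and 1.22 FPKM after vesicles (log2 change -1.09, limma adjusted p = 8.83e-05). Id1, a target of BMP signalling, fell by 0.94, which was not called with replicate 3 dropped from both groups (adjusted p = 0.0665). Tgif1, a Smad co-repressor gene, fell by 0.59.

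In the same list Tgfbi, a secreted matrix protein gene induced by TGF-β, rose from 12.9, 12.9 and 17.8 FPKM to 76.2, 55.9 and 79.5 FPKM (log2 change 2.20, limma adjusted p = 0.000115). Skil, a Smad co-repressor gene, and Smad3, which transmits TGF-β and activin signals, rose by 0.86 and 0.76. Smad6, an inhibitory Smad, rose by 0.67 (adjusted p = 0.0396), and its call was lost with no filter (0.0762) and when any 1 library but PBS replicate 2 was left out (0.0623 to 0.117). The called genes of the list thus included known TGF-β targets that moved in both directions, with Smad7 lower and Tgfbi and Skil higher.

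Of 6 genes of the growth hormone and STAT5 axis, which acts upstream of Igf1 in liver, 3 passed the filter. Of these 2 rose and 1 fell, a share of 100% called, against 54.0% of all genes. A share over only 3 genes says little. Jak2, a kinase shared by many cytokine receptors, rose from 10.3 ± 0.284 to 37.5 ± 1.91 FPKM (log2 change 1.77, limma adjusted p = 4.13e-06). The transcription factor genes Stat5a and Stat5b changed by 0.28 and -0.28, the former not called with replicate 1 or 3 dropped from both groups (adjusted p = 0.0624 and 0.0901). Ghr, the growth hormone receptor gene, did not pass the filter, with 0.554, 1.35 and 0.726 FPKM in the controls and 0.303, 0.710 and 0.368 FPKM after vesicles.

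Of 11 genes whose products bind or handle progranulin, 2 rose, 8 fell and 1 was not called (median log2 change -0.89, against -0.12 for all genes). The share called was 90.9%, against 54.0% of all genes, of which 35.6% were lower. Slpi, an inhibitor that shields progranulin from elastase, was at 0.468, 0.766 and 0.400 FPKM without vesicles and 19.2, 32.8 and 22.6 FPKM with them (log2 change 4.04, limma adjusted p = 1.72e-05). Tnfrsf1b, a tumour necrosis factor receptor gene, rose from 150.9 ± 22.0 to 366.8 ± 33.7 FPKM (log2 change 1.28). Psap, the prosaposin gene, whose product carries progranulin to lysosomes, fell by 1.33 on the log2 scale. The lysosomal protease genes Ctsb and Ctsd fell by 1.28 and 1.17, and Lrp1, an endocytic receptor gene that takes up prosaposin, by 1.19.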

How the data were processed

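Gene expression was measured by RNA sequencing of 6 libraries, 3 per group. Each of the 6 tables the authors deposited holds FPKM for 26883 rows. Per the submitters' processing notes, the tools were HISAT2 2.1.0, StringTie 1.3.4b, CASAVA 1.8 and edgeR and the build GRCm38, with no role stated. The strand setting and annotation are not given in the sources used here.

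The row of Tgfb1 was not analysed here. Repeated symbols were reduced to the row with the highest mean (47 rows dropped), which left 26835 genes. Gene positions and exon lengths came from GENCODE M21 (GRCm38), matched by symbol for 99.6% of genes. FPKM times length fell near multiples of 1 step. Among values of up to 20 such steps, 72.3% to 73.3% came within 0.1 of a whole number (20% by chance), and approximate reads rest on that step. Members of that size fitted less well. Vegfc in PBS replicate 1 lay 0.38 from a whole number, and Gdf15 in K7M2-EV replicates 1 and 3 lay 0.37 and 0.27 from one. Gdf15 in PBS replicate 1 lay 0.1 from one. Read numbers and counting errors of these 2 genes are thus rougher.

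The test, on log2(FPKM + 1), took genes that reached 1 FPKM in 3 or more libraries and used limma 3.58.1 (trend and robust settings) in R 4.3.3, with Benjamini-Hochberg adjustment over all 13009. This scale understates changes of low genes. The fit was also run on simulated data with few changed genes and no replicate effect. That setting differs from these data, so the run is no support for the calls. Members and lists were chosen with earlier results of these data known. Named genes were all members, the called genes of each list with the 4 largest rises and the 4 largest falls, and Tgfbr1, Tgfbr2, Igf1r, Egfr, Vegfa, Sort1 and Psap whatever their result. One gene that this rule names is not reported here. The main test used the group only and did not pair the libraries. Deviations from the group means correlated across genes between libraries of equal number (0.317, 0.294 and 0.209). Between libraries of unequal number the correlations ran from -0.307 to 0.0232. Deviations within a group cancel, which ties these values to each other. Only the replicate block, an alternative setting, paired libraries by replicate number, a pairing that no label states. The submitters describe independent experiments, and p-values measure the spread between these libraries.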

Additional observations from a re-analysis of the deposited data

How the results depend on the processing

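Igf1, Pdgfa, Pdgfb, Vegfb, Hbegf and Vegfc kept their direction and call in all 17 alternatives (other pseudocounts, filters and scalings, the replicate block, voom on approximate reads and left-out libraries). Their log2 changes ranged from -1.98 to -1.71, -2.23 to -1.33, -2.13 to -1.89, -1.73 to -1.10, -1.89 to -1.10 and 1.12 to 2.52. The number of members higher went from 1 to 2 with the replicate block and without both libraries of replicate 2, and was 1 to 2 when 1 library was left out; the added member was Inhba each time. The number lower went from 5 to 6, with Grn added, without PBS replicate 2 and without both libraries of replicate 2. With the replicate block, 7 binding and processing genes were higher (4 without it), 9 lower (6 without it) and 2 other ligands lower (1 without it), and the block changed no member's call but that of Inhba. Leaving out 1 library gave 1993 to 2416 genes higher and 3896 to 4281 lower over all genes, 1 to 2 other ligands lower, and 7 to 9 receptors lower. Quantile normalization gave 4 receptors higher in place of 2. Without both libraries of replicate 1, 2 binding and processing genes and 1 STAT5-axis gene were higher. Without both of replicate 2, 2 other ligands were lower. Without both of replicate 3, 1531 genes were higher and 2847 lower over all genes, 5 receptors were lower and 1 STAT5-axis gene higher; these fits had fewer samples. The log2 change of Vegfa was 0.034 after median-of-ratios scaling, 0.153 after quantile normalization, 0.093 without both libraries of replicate 1, and -0.249 to 0.045 when 1 library was left out. Leaving out 1 library gave -0.006 to 0.887 for Fstl1 and -0.04 to 0.611 for Ltbp2, both lowest without K7M2-EV replicate 2. The cause was not tested. Depth limits Gdf15 and the PBS level of Vegfc most.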
